A study of Mus musculus with 23 samples.

Results

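The regions described here are 730 accessible regions bound by the nuclear receptor NR5A2 that lie at the ends of protein-coding genes, out of 16958 regions in the table and 7938 accessible regions on autosomes. A region was taken when the authors classed it as bound and accessible and its midpoint (mm10) lay within 1000 bp of either end of a protein-coding gene span in the RefSeq gene table of GRCm38.p6, which is mm10. The choice used position and the authors' class of accessibility, and no difference between knockout and control. The 730 regions have 721 nearest genes, and 9 genes have a pair of regions each. Region lengths ran from 158 to 1257 bp, and the median distance from midpoint to gene end was 294 bp.

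Accessibility was measured in 8-cell mouse embryos by ATAC-seq, in which a transposase cuts and tags open DNA. In the mz series (maternal and zygotic Nr5a2), 8 single embryos labelled mz_NrHet, heterozygous for Nr5a2, were the controls for 13 single embryos labelled mz_NrKO, all analysed without culture. In the inducible series (iNrKO), early 2-cell embryos were collected 30 h after hCG and grown in culture for 45 h. One pool, labelled iNrKO_plus_Tam_NrKO, had 750 nM 4-hydroxytamoxifen for the first 24 h, and the untreated pool, labelled iNrKO_minus_Tam_Nrpp, was its control. The parents' alleles, the Cre driver and the number of embryos per pool are not given in the sources used here. The mz controls were heterozygotes and not wild type, and no tamoxifen-treated pool with intact Nr5a2 is among the samples, so drug and deletion cannot be told apart in the inducible series.

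The table holds 1 merged RPKM value (a read density scaled by depth) per group and region. No value of a single embryo could be analysed, so how far embryos of a group vary is not known, and the 2 pools have no replicates. The RPKM values were whole multiples of what 1 read is worth in each column, whatever the length of the listed region, and reads were recovered from them. Gene-end regions held 11873 heterozygote reads and 14973 mz knockout reads, and 23386 and 18557 reads of the untreated and treated pools, with medians of 14, 16, 29 and 22 reads per region. At 0 reads stood 5, 2, 0 and 1 of the 730 regions, and 3 reads, the limit that a count of 0 allows, equal 1.76, 1.08, 0.49 and 0.51 RPKM. Intervals and tests on these reads compare merged libraries and cover counting error only.

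NR5A2, an orphan nuclear receptor, contacts DNA as a monomer at an extended site, in which a few bases precede the nuclear receptor core AGGTCA. In the mouse it is present in the early embryo, and it is also known for regulating bile acid and steroid synthesis in liver and gonads. A gene's start carries its core promoter, where general factors assemble with RNA polymerase II, and promoters of widely expressed genes are often rich in CpG and are open in most cell types. A gene's finish is the end of its transcribed span and has no core promoter of that gene.

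The DNA under the recentred summits is shown first, because it is where the table places NR5A2. The authors moved the CUT&RUN summit (the point of strongest antibody-directed cleavage) onto an Nr5a2 motif in 504 of the 730 regions, by up to 248 bp, and left it unmoved in 226. Sequence came from RefSeq's promoter windows (GRCm38.p6, 250 bases before to 50 after an annotated transcript start), and these windows hold the moved summit of 65 regions. All 65 summits sat on a 9-base site with at most 1 difference from TCAAGGTCA or TCAAGGCCA, 12 with 0 differences and 53 with 1. All full matches except that at Fbxo6 are printed below, 5′ to 3′ on the strand given. The 9-base site is in capitals, with 8 bases of context on each side. They were chosen for the full match after their values had been seen, and the name is that of the nearest gene.
Mtrf1l, chr10:5824135-5824159, minus strand: tcgctatcTCAAGGTCAcgcctagg
Psap, chr10:60277471-60277495, minus strand: tgattaaaTCAAGGTCAggcgccga
Khdc3, chr9:73102182-73102206, minus strand: acctgactTCAAGGCCAatctaatc
Mfsd10, chr5:34637417-34637441, minus strand: tcaggaatTCAAGGTCAaccgtggc
Nfe2l1, chr11:96829493-96829517, minus strand: agggtgggTCAAGGCCAgcaaagta
Gm13102, chr4:144099771-144099795, plus strand: cagggagtTCAAGGCCAtctgggat
Dnajc16, chr4:141790785-141790809, minus strand: ggtgaccgTCAAGGCCAaaataggt
Tesk1, chr4:43442217-43442241, minus strand: tcctccccTCAAGGTCAtcgggaag
Psmc3ip, chr11:101095657-101095681, minus strand: ggtttagcTCAAGGTCAcgagtgct
Slc25a30, chr14:75787103-75787127, plus strand: cggctcccTCAAGGCCAcgcctcca
Sdhd, chr9:50603797-50603821, plus strand: tcgagggcTCAAGGTCActctacaa

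A full 9-base match did not go with a single kind of difference between knockout and control. The Khdc3 site, in the promoter of a maternal-effect gene of the oocyte's subcortical complex, lay in a region with 16.4 RPKM in heterozygotes against 4.66 in mz knockouts, and 5.88 and 2.72 RPKM in the untreated and treated pools. The Psap site, at the gene of the lysosomal protein prosaposin, lay in a region with 18.8 and 9.32 RPKM in the mz series and 5.55 and 3.74 RPKM in the inducible series. The region at Tesk1, a kinase gene, was higher in both knockouts, with 5.29 and 6.81 RPKM, and 3.10 and 5.45 RPKM. Of the 12 regions only that at Khdc3 passed the exact binomial test on reads, in the mz series. As a set the 12 had a ratio of summed RPKM, knockout over control, of 0.695 in mz knockouts (95% interval 0.575 to 0.841) and 0.833 in the treated pool (0.716 to 0.969). The 53 regions whose site had 1 difference had ratios of 0.770 (0.704 to 0.843) and 0.913 (0.850 to 0.980). The intervals of the 2 sets overlap in both series.

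Promoters with and without the 8-base core sites CAAGGTCA and CAAGGCCA are shown next, because 197 of the 226 gene-end regions with a promoter window had no such letters in it. Of the 65 regions named by a fixed rule, 20 had a promoter of the table at the region, and 1 of these, Khdc3, held a core site. The 250 bases before the start are printed 5′ to 3′ in the direction of the gene, with the core site in capitals, for Khdc3 and for the 3 most accessible regions without one.
Khdc3, chr9:73102148-73102397, plus strand: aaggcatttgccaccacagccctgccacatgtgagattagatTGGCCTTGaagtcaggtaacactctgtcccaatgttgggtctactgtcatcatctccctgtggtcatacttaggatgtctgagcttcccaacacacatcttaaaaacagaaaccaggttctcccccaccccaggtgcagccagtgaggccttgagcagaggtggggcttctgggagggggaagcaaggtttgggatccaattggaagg
Gsk3b, chr16:38088751-38089000, plus strand: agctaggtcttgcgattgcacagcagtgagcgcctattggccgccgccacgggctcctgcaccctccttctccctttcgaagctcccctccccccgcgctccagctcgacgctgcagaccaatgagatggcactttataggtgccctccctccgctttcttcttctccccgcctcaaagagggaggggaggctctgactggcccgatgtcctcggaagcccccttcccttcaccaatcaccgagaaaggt
Zbtb5, chr4:45012413-45012662, minus strand: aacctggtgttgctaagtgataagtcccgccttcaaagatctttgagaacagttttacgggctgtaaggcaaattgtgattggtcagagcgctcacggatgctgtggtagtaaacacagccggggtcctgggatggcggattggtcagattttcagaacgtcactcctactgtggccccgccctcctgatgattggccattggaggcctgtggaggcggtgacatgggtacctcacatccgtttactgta
Aco1, chr4:40143015-40143264, plus strand: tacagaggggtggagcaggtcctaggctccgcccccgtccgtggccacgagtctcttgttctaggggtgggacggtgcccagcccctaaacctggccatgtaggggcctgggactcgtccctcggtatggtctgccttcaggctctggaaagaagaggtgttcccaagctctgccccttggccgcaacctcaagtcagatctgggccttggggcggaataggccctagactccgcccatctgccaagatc

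The Khdc3 core site, 208 bases before the start, is in the opposite orientation to the gene and is part of the 9-base site printed above. The other 3 regions were more accessible and differed less. Gsk3b, the gene of a kinase of glycogen and Wnt signalling, had 32.3 RPKM in heterozygotes against 28.3 in mz knockouts, and 12.9 and 10.4 RPKM in the untreated and treated pools. Zbtb5, a zinc finger gene, had 22.3 and 20.1 RPKM, and 8.00 and 10.9 RPKM. Aco1, which encodes the cytosolic aconitase that also acts as an iron sensor, had 26.4 and 16.5 RPKM, and 9.96 and 8.17 RPKM. None of the 3 passed the exact binomial test in either series. CpG dinucleotides, observed over expected, were 0.662 in the Gsk3b promoter, 0.593 in Zbtb5 and 0.406 in Aco1, and the Khdc3 promoter had none.

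The first comparison asked how accessibility at gene ends differs in 8-cell embryos without maternal and zygotic Nr5a2. Gene-end regions were lower in mz knockouts, at 0.770 of the control sum (95% interval 0.752 to 0.789), against 0.631 (0.624 to 0.638) in the 7208 other accessible autosomal regions. The median over regions of the log2 ratio, on log2(RPKM + 1), was −0.32 at gene ends, −0.50 in the other accessible regions and −0.32 over the whole table. The median region at a gene end had 8.22 RPKM in heterozygotes, and the median of the other accessible regions was 4.11 RPKM. No test over embryos was possible for these ratios.

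Single regions at gene ends were more often lower than higher. Past 1.5-fold of (RPKM + 1) stood 236 of 730 regions on the lower side (32.3%), against 38.1% of all regions of the table, and 42 on the higher side (5.75%), against 12.5%. A two-sided exact binomial test on reads, adjusted by Benjamini-Hochberg over all 16958 regions at 0.05, called 16 regions lower (2.19%), against 1.73% of the table, and 1 higher, against 0.0236%. At an unadjusted p under 0.05 the counts were 128 lower and 10 higher. Of the other accessible autosomal regions, 45.4% were past 1.5-fold lower and 8.85% higher, and 3.22% were called lower. The called share at gene ends lies close to that of the whole table, in which regions hold fewer reads. It lies below that of the other accessible regions.

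The second comparison asked the same of embryos that lost Nr5a2 from the 2-cell stage on. The ratio at gene ends was 0.827 (0.811 to 0.843), against 0.678 (0.673 to 0.683) in the other accessible autosomal regions, and the median log2 ratios were −0.23, −0.44 and, over the whole table, −0.35. Past 1.5-fold stood 145 regions on the lower side (19.9%), against 32.2% of the table, and 15 on the higher side (2.05%), against 2.81%. The exact binomial test called 45 regions lower (6.16%), against 6.37% of the table, and 1 higher, against 0.0767%, and 107 and 7 regions had an unadjusted p under 0.05. Of the other accessible autosomal regions, 38.7% were past 1.5-fold lower and 1.55% higher, and 10.6% were called lower. Gene ends held a larger share of the table's reads in knockouts than in controls, with 11.9% in heterozygotes and 13.7% in mz knockouts, and 8.19% in the untreated and 9.76% in the treated pool.

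The direction of the summed ratio depended on how the columns were scaled. With each pair of columns scaled to a median log2 ratio of 0 over the whole table, shifts of −0.32 (mz) and −0.35 (inducible), the gene-end ratios became 0.962 and 1.05. Scaled instead to a summed ratio of 1 over the table, which was 0.668 and 0.694 as deposited, they became 1.15 and 1.19. The mz split past 1.5-fold, 236 lower and 42 higher as deposited, became 153 and 101 with the first scaling and 99 and 171 with the second. The inducible split, 145 and 15, became 80 and 67, and 53 and 118. Gene ends were thus lower than in controls on the deposited scale in both series, and higher relative to the table's sum in both. The table holds no accessible region without NR5A2, so whether the columns share a change in overall accessibility was not tested.

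**Figure D1:**
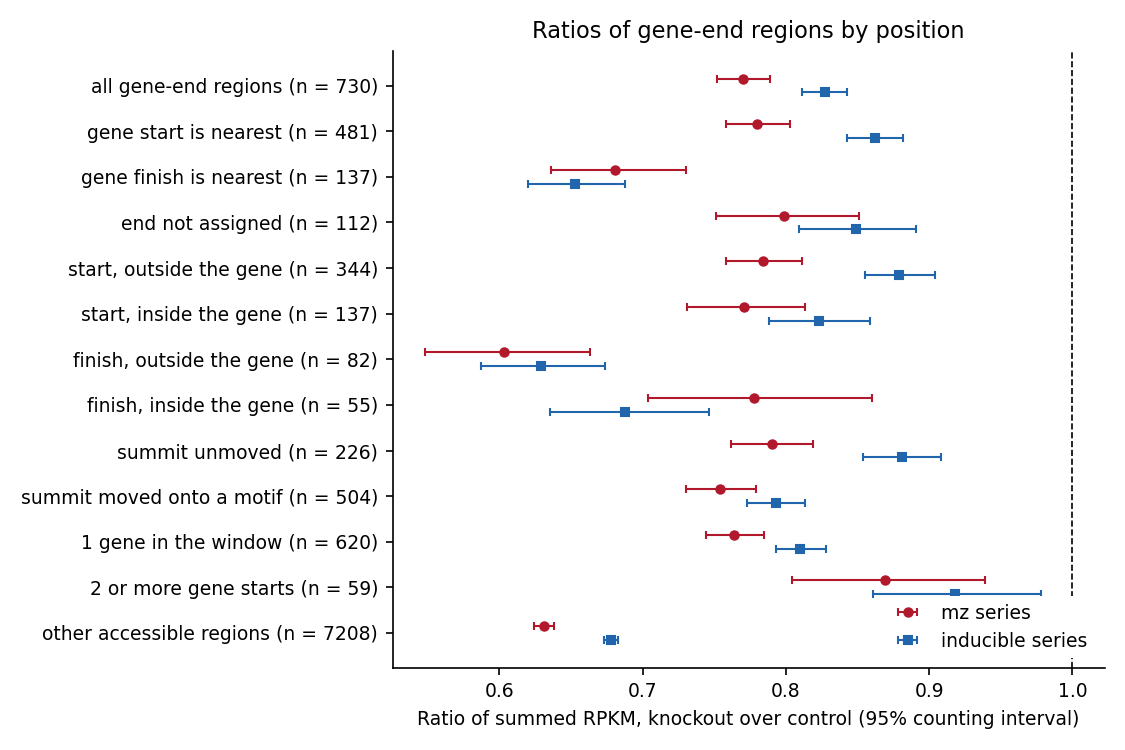
Ratio of summed RPKM, knockout over control, for gene-end regions and their subsets (points, mz series as circles and inducible series as squares; bars, 95% counting intervals on merged reads; dashed line, ratio of 1). Regions at a gene finish lie at 0.681 and 0.653, below those at a start, at 0.780 and 0.862.

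Which end of the gene a region lay at could be told for 618 of the 730 regions, from the strand of RefSeq's promoter table. A gene start was nearest in 481 regions, a gene finish in 137, and 112 were not assigned. The nearest gene of these 112 has no entry among those promoters, which lack chromosome 18 and some genes elsewhere. Regions at starts had a mz ratio of 0.780 (0.758 to 0.803) and an inducible ratio of 0.862 (0.843 to 0.882). Regions at finishes had 0.681 (0.636 to 0.730) and 0.653 (0.620 to 0.688), close to the other accessible regions in both series. A single very bright region at the finish of Lars2 held many of these reads, and without it the finish ratios were 0.625 (0.580 to 0.673) and 0.644 (0.611 to 0.680). The 112 regions not assigned had 0.799 (0.751 to 0.851) and 0.849 (0.809 to 0.891).

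Shares of single regions showed the same order. Of the 481 start regions, 144 (29.9%) were past 1.5-fold lower in the mz series and 71 (14.8%) in the inducible series. Of the 137 finish regions 57 (41.6%) and 52 (38.0%) were, against 38.1% and 32.2% of the table. The exact binomial test called 8 start (1.66%) and 6 finish regions (4.38%) lower in the mz series, against 1.73% of the table. In the inducible series it called 21 (4.37%) and 19 (13.9%), against 6.37%. The other accessible regions had called shares of 3.22% (mz) and 10.6% (inducible). Finish regions began from a lower level, with a median of 4.70 RPKM in heterozygotes against 8.81 RPKM at starts, and 3.92 against 4.90 RPKM in the untreated pool. In the authors' deposited classes of change, 20.0% of start regions were "Down", against 49.6% of finish regions and 47.9% of the other accessible autosomal regions. Over all gene-end regions the authors' deposited classes held 25.5% "Down", 70.1% "Unchanged" and 4.38% "Up". After scaling to the table's median, start regions had ratios of 0.975 and 1.10 and finish regions 0.851 and 0.833. Scaling multiplies all regions of a series by the same factor, and of these 4 ratios that of start regions in the treated pool turned from below to above 1.

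Lying inside or outside the gene span mattered less than which end was near. Start regions outside the gene (344) had ratios of 0.784 and 0.879 in the mz and inducible series, and those inside (137) had 0.771 and 0.823. Finish regions outside the gene (82) had 0.603 and 0.629. Those inside (55) had 0.778 and 0.688, which became 0.660 and 0.668 without the Lars2 region, so the mz gap between inside and outside rested in large part on that region.

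Ratios were nearer 1 the closer a region lay to the gene end. Within 100 bp of a gene end (124 regions) the mz ratio was 0.830 (0.788 to 0.876) and the inducible ratio 0.907 (0.868 to 0.947). At 101 to 250 bp (196 regions) they were 0.783 and 0.890, at 251 to 500 bp (182 regions) 0.755 and 0.786, and at 501 to 1000 bp (228 regions) 0.714 (0.678 to 0.751) and 0.739 (0.711 to 0.768). Control accessibility went the same way, with medians of 10.6, 9.99, 7.64 and 5.29 RPKM in heterozygotes from the nearest group to the farthest. Start regions also lay nearer to their gene end, at a median of 246 bp, than finish regions, at 617 bp. Distance and kind of end were not separated in these groups. The limit of 1000 bp marked no step in values. The 35 regions at 901 to 1000 bp had ratios of 0.630 (0.538 to 0.737) and 0.729 (0.655 to 0.811), and the 55 accessible autosomal regions just outside, at 1001 to 1100 bp, had 0.741 (0.661 to 0.831) and 0.623 (0.571 to 0.678).

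**Figure D2:**
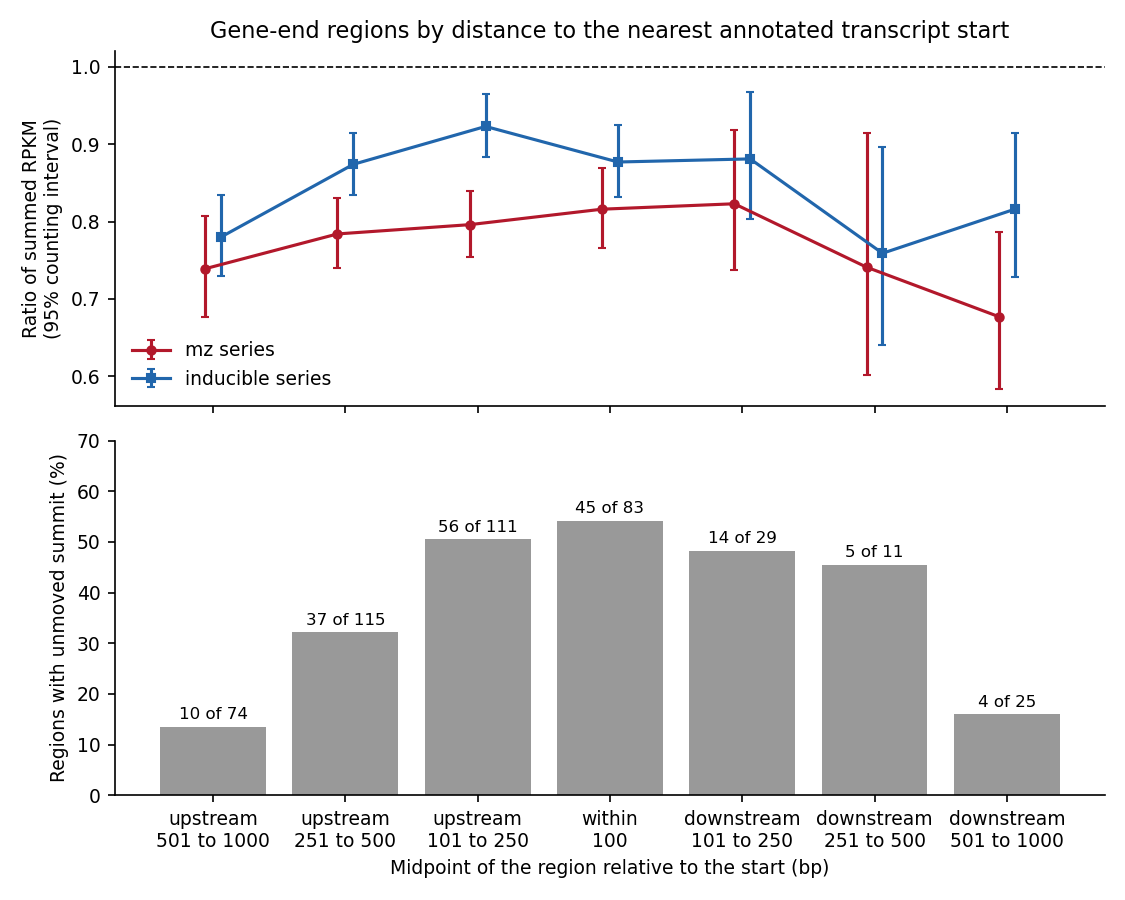
Top, ratio of summed RPKM (mz series as circles, inducible series as squares, 95% counting intervals) of gene-end regions grouped by the distance and side of their midpoint from the nearest annotated transcript start, in bp. Bottom, percent of each group whose CUT&RUN summit the authors left unmoved, which is 54.2% within 100 bp of the start and 13.5% at 501 to 1000 bp upstream.

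Around annotated transcript starts the 2 series had like profiles. The mz ratio was 0.739 at 501 to 1000 bp upstream (74 regions), 0.784 at 251 to 500 bp (115), 0.796 at 101 to 250 bp (111) and 0.816 within 100 bp (83). The inducible ratio was 0.780, 0.874, 0.923 and 0.877 in the same groups. Downstream, the 29 regions at 101 to 250 bp had 0.823 and 0.881, and the 25 regions at 501 to 1000 bp had 0.677 and 0.816. The 11 regions at 251 to 500 bp downstream had wide intervals in both series. Of the 16 regions called lower in the mz series, 3 lay within 250 bp of an annotated start, and of the 45 called in the inducible series, 7 did, against 223 of all 730 (30.5%). Regions near a start that is not listed are missing from these counts.

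Because start regions were also the more accessible ones, ratios were set side by side within 5 equal groups of accessibility, taken from the control of the other series so that the compared columns did not choose the groups. In the mz series start regions had ratios of 0.831, 0.788, 0.749, 0.774 and 0.782 from the least to the most accessible group. The other accessible regions had 0.650, 0.632, 0.624, 0.616 and 0.638, lower in each group, and none of the 5 pairs of counting intervals overlapped. In the inducible series start regions had 0.807, 0.788, 0.866, 0.833 and 0.876, and the other accessible regions 0.649, 0.687, 0.653, 0.661 and 0.719, again without overlap. Finish regions had 0.524, 0.605, 0.622, 0.625 and 0.761 in the mz series. The intervals of the 4 less accessible groups overlapped the interval of the other accessible regions. The highest, which holds the Lars2 region, did not. In the inducible series finish regions had 0.473, 0.672, 0.625, 0.687 and 0.685, and the lowest of these, over 17 regions (0.383 to 0.581), lay below the interval of the other accessible regions (0.636 to 0.662). The intervals of the other 4 groups overlapped.

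**Figure D3:**
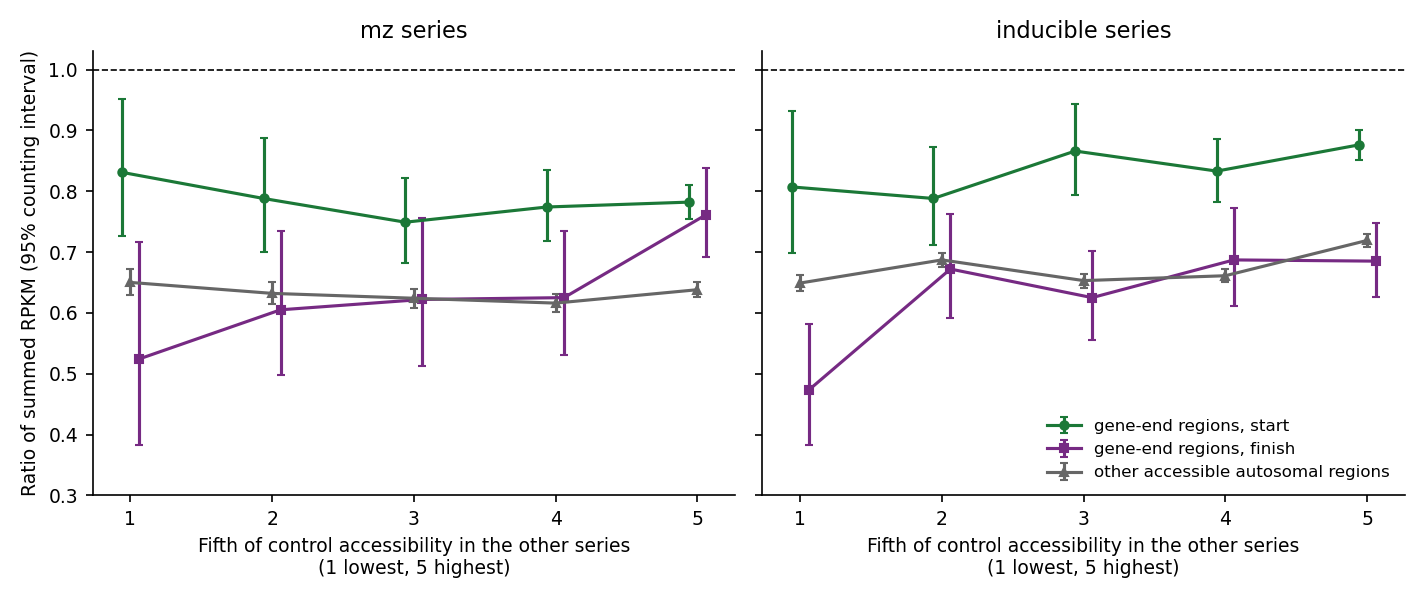
Ratio of summed RPKM within 5 equal groups of control accessibility taken from the other series (1 lowest, 5 highest), for gene-end regions at a start (circles), at a finish (squares) and other accessible autosomal regions (triangles), with 95% counting intervals. Start regions lie above the other accessible regions in all 5 groups of both series.

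CUT&RUN signal, measured in an earlier study per the file headers, was slightly lower at gene ends, with a median of 4.51 RPKM against 5.07 RPKM in the other accessible regions. In 5 equal groups of that signal, the mz ratio at gene ends was 0.824, 0.811, 0.745, 0.718 and 0.767 from the weakest to the strongest. The last value was 0.725 without the regions at Lars2 and Sfi1. The inducible ratio was 0.887, 0.857, 0.833, 0.801 and 0.778. The most strongly bound gene-end region lay 109 bp before Shcbp1l (22.5 RPKM in CUT&RUN), with 10.6 and 4.66 RPKM (mz) and 5.39 and 4.42 RPKM (inducible). Asb16, Fbxo15, 1810024B03Rik and Lars2 followed, at 18.4, 17.5, 16.8 and 16.5 RPKM in CUT&RUN. None of these 5 regions passed the exact binomial test in either series.

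CUT&RUN summits were more often left where they were at gene ends. They were unmoved in 31.0% of gene-end regions, against 10.6% of the other accessible regions, and in 36.0% of start against 10.2% of finish regions. Regions with an unmoved summit were brighter, with a median of 12.3 RPKM in heterozygotes against 6.46 RPKM for moved ones. The mz ratios were 0.754 (0.730 to 0.779) with a moved and 0.790 (0.762 to 0.819) with an unmoved summit, and the inducible ratios 0.793 (0.773 to 0.813) and 0.881 (0.854 to 0.908). Only the inducible intervals stand apart. Start regions with a moved summit kept ratios of 0.760 and 0.834, above the 0.624 and 0.667 of other accessible regions with a moved summit.

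Promoter letters could be read for 273 promoters at 226 gene-end regions and for 20085 protein-coding autosomal promoters in all. In these 300-base windows, searched on both strands, CAAGGTCA was found in 6.23% against 1.18% of all promoters and CAAGGCCA in 5.49% against 1.67%. Either core site was found in 11.7% against 2.82%. The regions were selected as bound by NR5A2, so the core sites are no independent result. Letters of general promoter factors were also more frequent, with the CCAAT box (CCAAT) in 59.7% against 35.3% and the GC box (GGGCGG) in 62.3% against 43.4%. The TATA letters TATAAA were found in 6.23% against 11.7%. The ETS letters CCGGAAG stood at 12.5% against 9.21%, the CRE letters TGACGTCA at 3.30% against 1.98%, the YY1 letters AAGATGG at 5.49% against 4.2% and the palindromic NRF1 motif at 1.1% against 1.08%. Median GC content was 58.8% against 56.0%, and CpG observed over expected 0.700 against 0.547. The 273 promoters lie at regions selected as accessible, and the 20085 were not selected in this way. Whether these differences are particular to NR5A2-bound promoters among open ones was not tested.

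Within these 226 regions, ratios in mz knockouts were higher at CpG-rich promoters and lower at promoters with a core site. In 3 equal groups from the promoters poorest in CpG to the richest, the mz ratio was 0.725 (0.675 to 0.779), 0.804 (0.755 to 0.857) and 0.873 (0.818 to 0.931), and the inducible ratio was 0.856, 0.910 and 0.941. The 29 regions with a core site in the promoter had a mz ratio of 0.704 (0.617 to 0.803), against 0.814 (0.782 to 0.847) for the 197 without. The inducible ratios were 0.895 (0.809 to 0.990) and 0.904 (0.874 to 0.935). A match to these letters is a description of the window and does not show a bound site.

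The 10 most accessible gene-end regions lay at genes that include basic functions such as translation, nuclear export and mitochondrial import. Lars2, the mitochondrial leucyl-tRNA synthetase gene, led with 96.3 RPKM in heterozygotes, 113 in mz knockouts, 18.8 in untreated and 17.5 in treated embryos. The region lay inside the gene, 689 bp from its finish (chr9:123461803-123462169). Sfi1, a centrosomal protein gene, had 27.0, 44.1, 30.8 and 27.7 RPKM in the same order. These 2 were the only ones of the 10 most accessible regions that were higher in mz knockouts. How reads map at them was not tested.

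The other 8 of these 10 regions lay outside the gene or at its start and differed by moderate amounts. Pa2g4, which encodes a growth-associated RNA-binding protein, had 38.8 and 27.3 RPKM in the mz series and 13.2 and 11.2 RPKM in the inducible series. Xpo1, the gene of the nuclear export receptor, had 33.5 and 26.2 RPKM, and 15.0 and 14.0 RPKM. Sp1, whose product binds GC boxes, had 36.4 and 25.5 RPKM in the mz series but 10.8 and 12.8 RPKM in the inducible series. Gsk3b, Fbrsl1, Tomm40 (the import channel of the mitochondrial outer membrane) and Khsrp (an RNA-binding protein) lay between 27.6 and 32.3 RPKM in heterozygotes and between 24.7 and 28.3 RPKM in mz knockouts. None of the 10 passed the exact binomial test in either series as deposited. After scaling to the table's median, Lars2 and Sfi1 were called higher in the mz series (adjusted p = 0.033 and 0.021, exact binomial test).

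**Figure D4:**
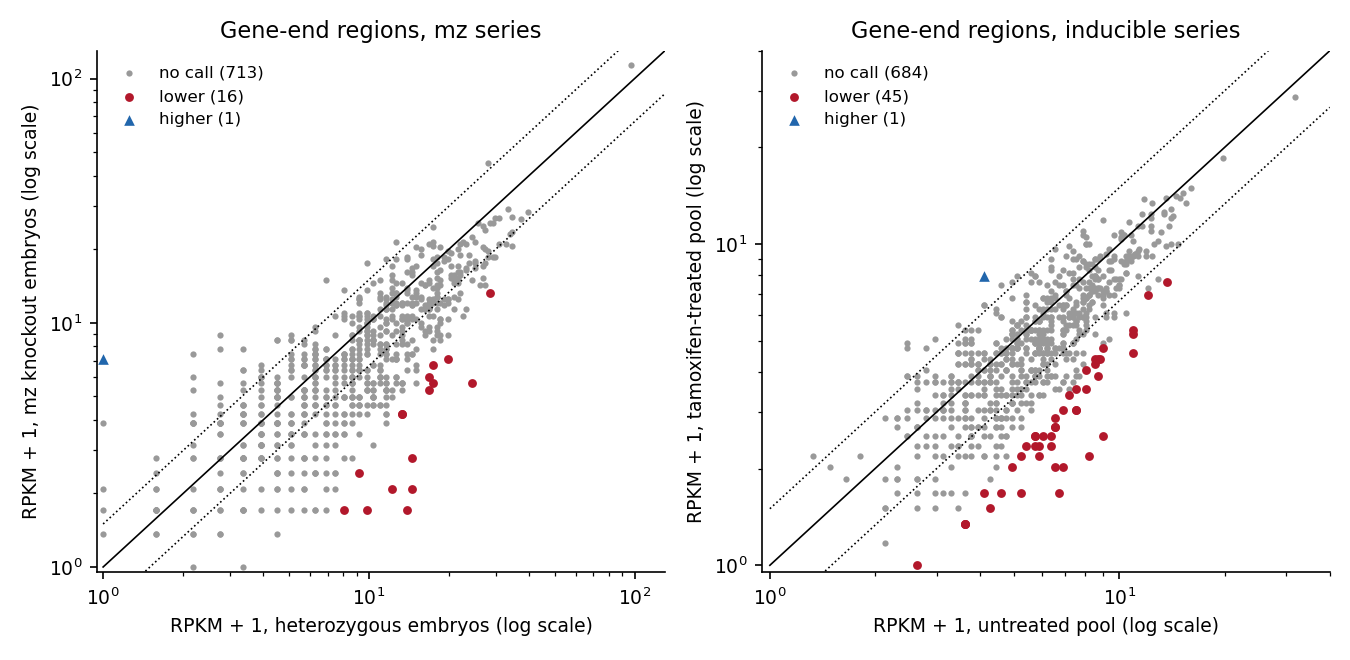
RPKM + 1 of each of the 730 gene-end regions in control (horizontal) and knockout (vertical) on log axes, for the mz series (left) and the inducible series (right). The solid line marks equal values and the dotted lines 1.5-fold; red circles are the 16 and 45 regions called lower and the blue triangle the 1 region called higher by the exact binomial test.

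The falls in mz knockouts that passed the test included regions over 1000 bp from an annotated start or with none listed, 10 of the 16, against 282 of all 730 gene-end regions (38.6%). Some gene starts are not listed, so part of these regions can lie close to a start. Of the 16, 2 were at a gene end not assigned, against 112 of the 730. The largest difference in RPKM was at the finish of Ntn3, a gene of the netrin family of guidance cues (chr17:24203350-24203508, 402 bp outside the gene). It fell from 23.5 to 4.66 RPKM, on 40 and 13 reads (ratio 0.198, interval 0.0974 to 0.379, adjusted p = 8.7e-05, exact binomial test), and had 3.92 and 1.87 RPKM in the inducible series. A region 756 bp beyond the finish of Btbd17 (chr11:114789771-114790055) fell from 12.9 to 0.717 RPKM. That rests on 22 and 2 reads (ratio 0.0555, interval 0.00633 to 0.226), and the inducible pools had 4.24 and 3.06 RPKM. A region 404 bp outside Whamm, whose product promotes actin branching at membranes (chr7:81570170-81570332), fell from 13.5 to 1.08 RPKM, on 23 and 3 reads (ratio 0.0796, interval 0.0153 to 0.264). The calls at Ntn3, Btbd17 and Whamm also stood with both scalings.

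At Wipf2, a gene of the WASP-interacting family that acts on actin, a region 210 bp beyond the finish (chr11:98905678-98905898) fell in both series, from 13.5 to 1.79 RPKM and from 5.39 to 1.53 RPKM. The adjusted p values were 0.00218 and 0.0128 (exact binomial test). Khdc3 went from 16.4 down to 4.66 RPKM (exact binomial test, adjusted p = 0.0196), with the full 9-base site at its summit, and the values of 5.88 and 2.72 RPKM in the inducible pools did not pass (adjusted p = 0.108, exact binomial test). Crxos, a homeobox gene, fell from 15.9 to 5.02 RPKM 192 bp inside its start. Msrb1, a methionine sulfoxide reductase gene, fell from 18.8 to 6.10 RPKM 190 bp before its start. Spag7 (27.6 to 12.2 RPKM), Adam2, a sperm surface protein gene (15.9 to 4.30 RPKM), and Ppp1r3b, which targets a phosphatase to glycogen (16.4 to 5.74 RPKM), complete the 10 largest called falls in RPKM, in which ranking bright regions come first. Spag7 was the only region called in the mz series among the 100 most accessible gene-end regions.

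A single gene-end region rose in mz knockouts past the test. At Tnfaip8l2, a gene of immune regulation (chr3:95142774-95143081, 511 bp before its start), heterozygotes had 0 reads and mz knockouts 17 reads, or 6.10 RPKM. This is 3.46-fold higher than 3 reads in the heterozygote column, the limit that 0 allows (adjusted p = 0.0384, exact binomial test). That fold leaves out the counting error of the 17 reads, and no interval was computed. The inducible pools had 2.45 and 3.91 RPKM and did not pass. The next smallest p on the higher side belonged to Sfi1 and to Tnfsfm13, with 1.76 and 7.89 RPKM on 3 and 22 reads (ratio 4.48, interval 1.35 to 23.4), and neither passed.

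In the inducible series the largest called differences in RPKM were at the regions given next. Cldn4, a claudin of tight junctions (chr5:134944196-134944476, 787 bp beyond its finish), fell from 8.00 to 1.53 RPKM, on 49 and 9 reads (ratio 0.191, interval 0.0827 to 0.394, adjusted p = 0.000143, exact binomial test). Grin1, an NMDA receptor subunit gene (chr2:25319297-25319715, 319 bp before its start), fell from 7.18 to 1.19 RPKM, on 44 and 7 reads (ratio 0.166, interval 0.0630 to 0.371). Pitpnc1, a phosphatidylinositol transfer protein gene (chr11:107206879-107207197, 854 bp beyond its finish), fell from 5.71 to 0.681 RPKM, on 35 and 4 reads (ratio 0.119, interval 0.0308 to 0.333). In the mz series these 3 regions had 7.64 and 5.74, 8.81 and 5.38, and 10.6 and 4.30 RPKM, all lower in knockouts and none past the test. The calls at Cldn4, Grin1 and Pitpnc1 stood with both scalings.

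Zfp655, a zinc finger gene, fell from 5.88 to 1.02 RPKM 152 bp before its gene span. Gulo, the last enzyme of vitamin C synthesis, fell from 9.96 to 3.57 RPKM. Grk6 and Vrk2, a pair of kinase genes, each fell from 9.96 RPKM, to 4.25 and 4.42 RPKM. Cyp2s1 (a cytochrome P450, 12.7 to 6.64 RPKM) and Mt1 (a metallothionein, 11.1 to 5.96 RPKM) also passed, while their mz values were higher in knockouts. Those were 11.2 and 14.7 RPKM, and 11.7 and 20.4 RPKM. Gnb1l, a gene of a WD-repeat protein, was the only called rise, from 3.10 to 6.98 RPKM on 19 and 41 reads (ratio 2.25, interval 1.28 to 4.10, adjusted p = 0.045, exact binomial test), with 4.70 and 5.02 RPKM in the mz series. Usp19 and E4f1 had the next smallest p on the higher side, with 1.47 and 3.74 RPKM, and 1.47 and 3.91 RPKM, and did not pass.

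Across the series, 67 gene-end regions (9.18%) were past 1.5-fold lower in both, against 15.6% of the table, and 1 was past 1.5-fold higher in both, against 0.607%. Of the 7208 other accessible autosomal regions, 1568 were past 1.5-fold lower in both series, and 57 were called lower in both. Called lower in both were 5 regions, or 0.685%, against 0.413% of the table: Ppp1r3b, Wipf2, Ifitm10, Fam227a and Gtpbp3, of which the last 3 are named after their values were seen. Ifitm10 fell from 12.3 to 3.23 RPKM and from 4.24 to 0.681 RPKM. Fam227a fell from 8.22 to 1.43 RPKM and from 4.24 to 1.19 RPKM. Gtpbp3, a gene of mitochondrial tRNA modification, fell from 8.81 to 0.717 RPKM and from 3.10 to 0.681 RPKM, with 2 and 4 reads left in the knockouts. The region higher in both lay at Cenpn, a centromere protein gene, with 1.17 and 3.23 RPKM, and 0.326 and 1.19 RPKM, and passed no test.

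All 16 regions called lower in the mz series were also lower in the treated pool, against 524 of all 730 (71.8%). Of the 45 called in the inducible series, 33 were lower in mz knockouts, a share near that of all 730 regions, of which 530 were lower (72.6%). Over the 730 regions the log2 ratios of the 2 series, which share no columns, correlated weakly (Pearson 0.21, Spearman 0.19), as in the other accessible regions (0.25 and 0.24). A test of the difference between the series on reads called 0 gene-end regions after adjustment over the table, with a smallest adjusted p of 0.284 (exact noncentral hypergeometric test), and 52 at an unadjusted p under 0.05. It called 3 regions in the whole table. A region called in 1 series only is therefore not shown to differ between them.

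Gene-end regions were also grouped by the role of the nearest gene, with lists defined by gene symbols. Of the 730 regions, 150 fell in a list, and these had a mz ratio of 0.790 and an inducible ratio of 0.848, against 0.764 and 0.822 for the rest. No list could be tested over embryos, and each is described by its counts beside the 32.3% and 19.9% of all gene-end regions that were past 1.5-fold lower. For calls, the shares called lower were 2.19% (mz) and 6.16% (inducible) of all gene-end regions, and 1.73% and 6.37% of the table.

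**Figure D5:**
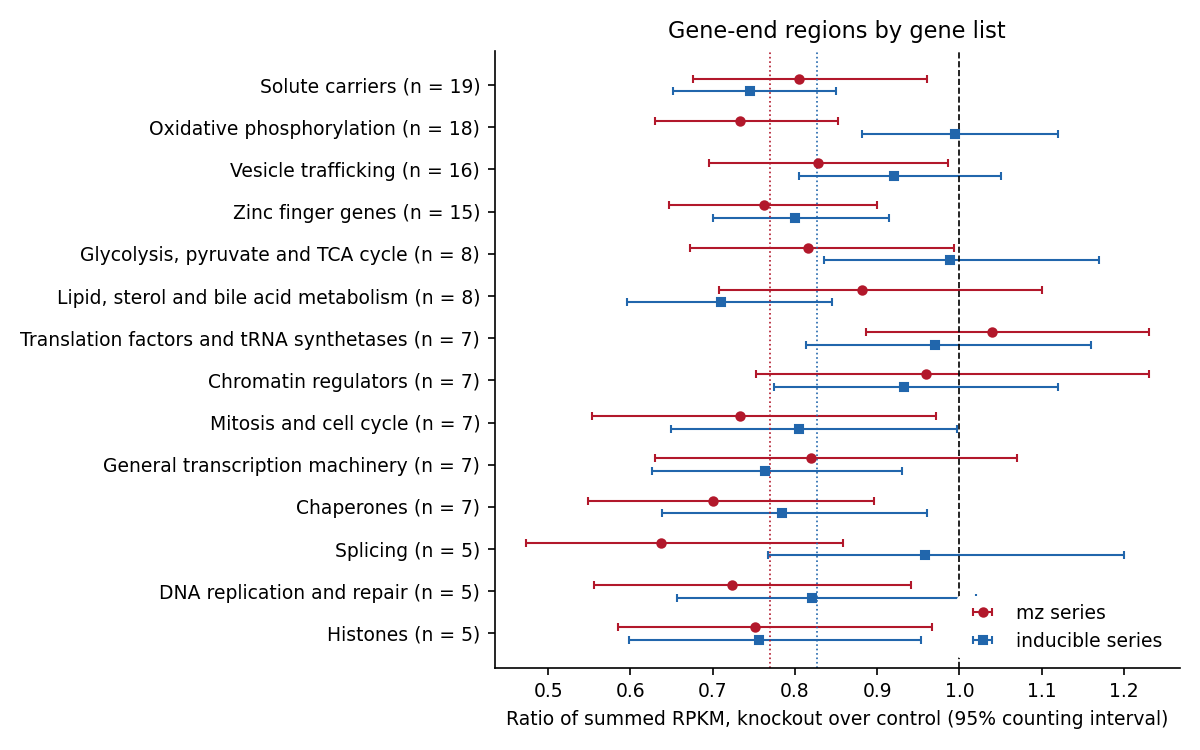
Ratio of summed RPKM (mz series as circles, inducible series as squares, 95% counting intervals) for gene lists with 5 or more gene-end regions; the dotted lines mark the ratios of all gene-end regions, 0.770 (mz) and 0.827 (inducible), and the dashed line a ratio of 1. Oxidative phosphorylation lies at 0.733 (mz) and 0.995 (inducible).

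Genes of energy metabolism had many regions and, in the inducible series, no region past 1.5-fold lower. The oxidative phosphorylation list held 18 regions, 15 of them at a start, with a mz ratio of 0.733 (0.630 to 0.853) and an inducible ratio of 0.995 (0.881 to 1.12). Past 1.5-fold lower stood 4 regions in mz knockouts and 0 in the treated pool, and none was called in either. Ndufaf3, an assembly factor of respiratory complex I, had 18.8 and 17.2 RPKM in heterozygotes and mz knockouts, and 9.96 and 9.19 RPKM in the pools. Atp5g1, a subunit of ATP synthase, had 20.6 and 15.1 RPKM, and 7.34 and 7.66 RPKM. The 8 regions of glycolysis, pyruvate and the TCA cycle, led by Aco1 and Got1, the cytosolic aspartate aminotransferase gene, were much the same, with ratios of 0.816 (0.672 to 0.994) and 0.988 (0.835 to 1.17). At Got1 the values were 25.8 and 16.1 RPKM, and 7.02 and 5.79 RPKM.

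Transporters and lipid enzymes had lower ratios in the inducible than in the mz series, with overlapping intervals, and the difference was not tested. The 19 solute carrier regions had 0.805 (0.676 to 0.960) and 0.745 (0.652 to 0.850), with 5 and 6 past 1.5-fold lower. The test called 3 of them lower in the inducible series (15.8%) and 0 in the mz series. Slc25a28 and Slc25a42, the most accessible, had 17.0 and 14.3, and 15.3 and 13.3 RPKM in the mz series, and 7.02 and 9.02, and 8.65 and 5.96 RPKM in the inducible series. The 8 regions of lipid, sterol and bile acid metabolism had 0.881 (0.708 to 1.10) and 0.710 (0.596 to 0.845), with 2 and 3 past 1.5-fold lower. Mvk, the mevalonate kinase gene, had 12.9 and 11.1 RPKM, and 6.53 and 4.76 RPKM, and Cyp2s1 was the only call.

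Regulators of transcription and chromatin were mixed. The 15 zinc finger regions had ratios of 0.763 (0.647 to 0.900) and 0.800 (0.700 to 0.914), with 6 and 3 past 1.5-fold lower, and 2 called in the inducible series (Zfp655 and Zfp820, the second named after its values were seen). Zbtb20 had 16.4 and 20.4 RPKM, and 11.4 and 8.17 RPKM. The 7 chromatin regulator regions had 0.959 (0.753 to 1.23) and 0.933 (0.775 to 1.12). Among these, Kmt5c, a histone H4 methyltransferase gene, had 17.0 and 13.3 RPKM, and 9.30 and 9.70 RPKM, and Chd8, a chromatin remodeller gene, had 18.8 and 11.5 RPKM, and 8.65 and 9.70 RPKM. The 7 regions of the general transcription machinery had 0.820 and 0.764, and their leading members were Med11 and Supt20. The 5 histone regions had 0.751 and 0.756, with 20.0 and 11.8 RPKM at H2ax, the histone variant gene of DNA damage signalling, and 22.3 and 10.4 RPKM at H1f2, a linker histone gene.

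Lists of RNA, protein and cell division had 5 to 16 regions each, too few to tell their counts past 1.5-fold from the shares above. In mz knockouts and the treated pool, 2 and 0 splicing, 2 and 2 chaperone, and 6 and 2 vesicle trafficking regions were past 1.5-fold lower. For mitosis and cell cycle these counts were 2 and 1, for replication and repair 1 and 0, and for translation 3 and 0. The 5 splicing regions had ratios of 0.637 (0.473 to 0.859) and 0.958 (0.767 to 1.20), with Snrpa, a U1 snRNP protein gene, at 21.1 and 12.2 RPKM, and 6.69 and 8.17 RPKM. The 7 chaperone regions had 0.701 and 0.784, with Tcp1, a subunit of the chaperonin that folds actin and tubulin, at 25.3 and 13.3 RPKM in the mz series. The 16 vesicle trafficking regions had 0.828 and 0.921, with Copz1, a coatomer subunit gene, at 20.6 and 11.5 RPKM, and 6.86 and 9.70 RPKM. The 7 mitosis and cell cycle regions had 0.733 and 0.805, with Ccna2, the cyclin A2 gene, at 16.4 and 7.53 RPKM, and 8.32 and 7.32 RPKM. The 5 replication and repair regions had 0.723 and 0.821, with Gins2, a subunit of the replicative helicase, at 26.4 and 19.0 RPKM, and 10.4 and 8.68 RPKM. The 7 regions of translation factors and tRNA synthetases had 1.04 and 0.970, and without Lars2 the 6 others had 0.775 and 0.996.

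Lists of early development had few gene-end regions, and these lists are also short. They hold 127 oocyte and 2-cell genes, 104 junction, polarity and Hippo genes, and 57 pluripotency and early lineage genes. Whether so few regions are unusual for lists of this size was not tested. The 4 regions of oocyte and 2-cell genes had a mz ratio of 0.431 (0.304 to 0.607) and an inducible ratio of 0.851 (0.636 to 1.14), and Khdc3 was the only call. Tle6, another gene of the subcortical maternal complex, had 17.6 and 7.89 RPKM, and 4.57 and 4.42 RPKM. The 4 regions of junctions, polarity and Hippo signalling had 0.757 (0.547 to 1.05) and 0.592 (0.453 to 0.769). Cldn4 and Pard6b, a polarity complex gene, were called lower in the inducible series, Pard6b from 5.06 to 1.53 RPKM, and Prkci, the atypical protein kinase C of that complex, had 3.75 and 4.08 RPKM. Of pluripotency and early lineage factors only Klf9 and Tfcp2l1 had a gene-end region, with 4.11 and 3.95 RPKM, and 1.17 and 2.87 RPKM, in the mz series. In the inducible pools they had 3.92 and 2.55 RPKM, and 3.43 and 2.04 RPKM, and neither passed the test in either series. None of the gene-end regions had a proteasome gene (48 in the list) or a gene of the nuclear receptor list (58) as its nearest. With lists this short, such an absence does not set them apart.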

How the data were processed

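ATAC-seq of 21 single embryos and 2 pools was deposited as a single table. Cutadapt, Bowtie2, MACS2 and mm10 are named per the submitters' processing notes, and the shifting of insertions and the removal of duplicates are not given in the sources used here. Per the file headers, the authors computed 1 merged RPKM value per group and region, CUT&RUN RPKM values, and a ratio of knockout over control. The deposited ratios equal (knockout + 0.01)/(control + 0.01) within 5e-08. Whole reads were recovered by dividing by 0.587, 0.359, 0.163 and 0.17 RPKM per read, and every value lay within 9e-08 of a whole read. The table used here holds merged columns, so the planned tests over embryos were not run.

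Reads were compared by two-sided exact binomial tests with Benjamini-Hochberg adjustment over all 16958 regions, and ratios have exact Clopper-Pearson 95% intervals conditional on the sum (Python 3.11.15, scipy 1.17.1). On simulated reads of the table, the mz test called 8% of regions lowered to 0.25-fold, 2% at 0.5-fold, 2% at 2-fold and 42% at 4-fold, and the inducible test 32%, 4%, 18% and 98%. Regions with no call are not shown to be unchanged.

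Members and lists were chosen with earlier results of these data known. Regions were named by rank of mean RPKM (10), of called falls (10) and rises (5) in RPKM or smallest p (3) per series, of CUT&RUN RPKM (5), and as the 2 most accessible per list of 5 or more regions. Some regions that the rule names are not reported here.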

Additional observations from a re-analysis of the deposited data

How the results depend on the processing

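As deposited, gene-end ratios were 0.770 (mz) and 0.827 (inducible). They were 0.740 and 0.786 within 2000 bp of a gene end, and 0.800 and 0.855 as medians over regions. The inducible ratio was 0.860 within 500 bp, 0.810 with any overlap of the window, and 0.865 within 1000 bp of an annotated start (chosen after seeing the data). Scaled to the table's median they were 0.962 and 1.05, and scaled to its sum 1.15 and 1.19, so scaling alone turned the direction.

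Regions past the fold, lower and higher, numbered 236 and 42 in the mz series, and 145 and 15 in the other. They became 108 and 11, and 46 and 0, at 2-fold; 153 and 101, and 80 and 67, scaled to the median; 99 and 171, and 53 and 118, scaled to the sum. Within 2000 bp they were 432 and 74, and 296 and 25, and within 500 bp 146 and 25 in the mz series and 79 lower in the inducible series. A pseudocount of 0.01 RPKM gave 29 higher in the inducible series.

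Calls by the exact binomial test were 16 lower and 1 higher, and 45 and 1. Lower calls became 5 and 5 scaled to the median, 3 and 3 scaled to the sum, 27 and 84 within 2000 bp, and 10 and 27 within 500 bp, and 26 in the mz series with at least 10 reads. Higher calls became 3 and 3 in the mz series with the 2 scalings and 4 in the inducible series scaled to the sum, and 0 in both within 500 bp. Calls at Ntn3, Btbd17, Whamm and Tnfaip8l2, and at Cldn4, Grin1, Pitpnc1 and Gnb1l, were kept with both scalings. Of the values of named regions, 18 stayed on their side of the threshold and 30 lost the call, all on scaling. The cause of these shifts was not tested.

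No paired analysis was possible because the columns are merged groups, and leaving out each embryo was not run for the same reason. The median gene-end region held 14 to 29 reads. In the simulation 2% (mz) and 4% (inducible) of 0.5-fold differences were called, and the share callable at gene ends was not tested.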

Other observations

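Regions shared by several genes were also recorded. In 59 gene-end regions the window held the starts of 2 or more genes, as at divergent promoters. Their ratios were 0.869 (0.804 to 0.939) in mz knockouts and 0.918 (0.861 to 0.978) in the treated pool, against 0.764 and 0.810 for the 620 regions with an end of 1 gene. None of the 59 was called lower in either series by the exact binomial test. The called shares were 2.19% (mz) and 6.16% (inducible) of all gene-end regions, and 1.73% and 6.37% of the table. At such shares few calls are due among 59 regions, so their absence does not set these regions apart. The summit was unmoved in 59.3% of the 59. Medians in heterozygotes were 9.99 and 7.64 RPKM.

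Regions at gene ends that the authors classed as not accessible (380) had ratios of 0.781 (0.726 to 0.840) and 0.739 (0.705 to 0.774). The other not accessible autosomal regions (8044) had 0.734 (0.720 to 0.748) and 0.700 (0.692 to 0.708), so the gap by position was narrower than among accessible regions. By chromosome, the gene-end ratio of mz knockouts ran from 0.659 on chromosome 14 (18 regions) to 0.916 on chromosome 18 (20 regions), and that of the treated pool from 0.733 on chromosome 8 (36 regions) to 0.924 on chromosome 15 (31 regions).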
